A study of Mus musculus with 22 samples.

Results

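The transcripts described here are 7 neuropeptide precursors and 2 tachykinin receptors of the spinal dorsal horn, taken by gene symbol: Tac1, Tac2, Npy, Nmu, Cck, Nts, Grp, Tacr1 and Tacr3. They are 9 of the 17306 genes in the table, and all 9 passed the filter on low values that left 16765 genes. Opioid peptides and somatostatin were not included. RNA was sequenced from the lumbar spinal cord (L4-L6) of 22 wildtype C57BL6J male mice, aged 12 to 14 weeks at collection. The tissue is described by the study as ipsilateral dorsal horn quadrants. Every mouse had 1 mg of sodium iodoacetate (MIA) injected into a knee joint, which produces lasting joint pain, so no group without joint pain is compared here. The gel VPG, a slow-release phospholipid carrier, was injected at 2 times, either with SAFit2, an inhibitor of the stress-response protein FKBP51, at 100 mg/kg, or alone as vehicle. SAFit2 was given to 5 early and 5 late mice (Early SAFit2 and Late SAFit2), and gel alone to 6 early and 6 late mice (Early Vehicle and Late Vehicle). Late gel was given on days 20 and 27 after MIA. For early gel the methods give 3 days before and day 4 after MIA, the labels days 3 and 4. Cord was taken on day 30. Early and late are also the labels' batches, so timing and batch cannot be told apart when groups of different timing are compared.

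Neuropeptides are made as longer precursors, cut in the secretory pathway and released from dense-core vesicles, and they act on G protein-coupled receptors more slowly and over longer distances than glutamate or GABA. In the dorsal horn each one belongs to particular sets of interneurons, so their transcripts are widely used to tell these cells apart. Tac1 encodes the precursor of substance P and neurokinin A, and Tac2 that of neurokinin B. Tacr1 is the receptor that substance P prefers, carried by many of the neurons that project to the brain, and Tacr3 is the receptor for neurokinin B. Grp (gastrin-releasing peptide), Nmu (neuromedin U), Nts (neurotensin) and Cck (cholecystokinin) are made by excitatory interneurons, whereas Npy (neuropeptide Y) marks inhibitory ones. Primary sensory neurons also make some of these peptides, but their RNA stays largely in the dorsal root ganglion.

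Libraries held between 11352989 and 24433349 reads on genes, and each of the 9 transcripts had at least 85 reads in every library. Dorsal horn markers were present. The sum of 19 dorsal excitatory markers lay between 9.62 and 10.19 log2 CPM (reads relative to the size of the library, as log2) in all 22 mice, and that of 12 dorsal inhibitory markers between 9.30 and 9.84. Single markers on both lists were less even than these sums, which the most abundant genes dominate. Among excitatory markers Mafa ran from 0.10 to 3.75 and Tlx3 from 0.75 to 3.34. Slc6a5, the glycine transporter of inhibitory neurons, ran from 1.47 to 6.56. In late mice Slc32a1 and Prrxl1 were called (adjusted p under 0.05 by limma and at least 1.2-fold) lower and Rorb higher with SAFit2. Of 10 markers of neurons in general 2 were called, both higher, where 12.1% of all genes tested were called. These were Elavl4 (log2 fold change 0.62) and Map2 (0.52). After a correction for GC content and length they were at 0.23 and 0.53, and neither was called. Of 10 sensory ganglion markers 5 were measured, among them Avil at 0 to 26 reads, Isl2 at 0 to 39, P2rx3 at 8 to 76 and Th at 49 to 345. Motor neuron markers, which lie in the ventral horn, were far less even. Their sum, over 8 genes such as Chat, ran from 4.03 to 8.88 log2 CPM, a 28.9-fold range over all mice and a 6.19- to 23.1-fold range within each group. Some libraries stood apart. Early Vehicle 4 and 5 had the highest oligodendrocyte marker sums (up to 14.99 against a median of 14.29 log2 CPM). In 4 libraries the neuronal RNA Bc1 exceeded 16 log2 CPM. The sum of skeletal muscle markers was 7.78 log2 CPM in Late SAFit2 3 and 7.33 in Late SAFit2 5, against at most 2.67 in the other late mice, and 5 of its 7 tested genes had a nominal p under 0.05 in the late comparison, all higher with SAFit2 (Tnnt3 was called). Libraries also differed in how their values followed the GC content of a gene, here called the GC slope (how far a library departed from the average library, in log2 units for each 10 points of GC). Its mean was -0.30 in Late SAFit2 and 0.17 in Late Vehicle mice (exact permutation p = 0.028, two-sided, 462 splits), and results are therefore also given after a correction for GC content and length.

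RefSeq promoters (GRCm38.p6) were at hand for 8 of the 9 genes. Of these Tac1, Npy and Tacr1 lie on chromosome 6, Tac2 and Nts on chromosome 10, and the others each on a chromosome of its own. The 250 bases before the transcription start are shown for Tac1 and Nmu, whose levels moved together across mice, for Nts, which differed in late mice, and for Cck, which varied apart from the others. They lie at chr6:7554811-7555060 (plus strand), chr5:76363778-76364027 (minus strand), chr10:102490419-102490668 (minus strand) and chr9:121495695-121495944 (minus strand). The annotated gene begins before the start used for Tac1 (chr6:7554879), Nmu (chr5:76363788) and Nts (chr10:102490486), so part of each of these stretches lies within the gene. The same holds for Tacr1 (chr6:82402334), which is not shown. Capitals mark the E-box CACGTG and the half-site TGACG of the cyclic AMP response element, searched on both strands, so that the half-site also reads CGTCA, and no 2 of these matches overlap.
Tac1: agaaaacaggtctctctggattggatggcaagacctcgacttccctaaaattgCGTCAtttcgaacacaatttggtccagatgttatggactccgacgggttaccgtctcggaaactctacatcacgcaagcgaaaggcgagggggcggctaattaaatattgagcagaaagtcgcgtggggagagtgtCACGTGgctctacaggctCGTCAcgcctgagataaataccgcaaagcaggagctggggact
Nmu: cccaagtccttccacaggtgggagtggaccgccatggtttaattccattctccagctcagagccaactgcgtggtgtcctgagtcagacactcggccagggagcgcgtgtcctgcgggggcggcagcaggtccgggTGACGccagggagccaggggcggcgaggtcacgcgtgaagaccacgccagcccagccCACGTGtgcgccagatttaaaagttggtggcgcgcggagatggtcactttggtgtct
Nts: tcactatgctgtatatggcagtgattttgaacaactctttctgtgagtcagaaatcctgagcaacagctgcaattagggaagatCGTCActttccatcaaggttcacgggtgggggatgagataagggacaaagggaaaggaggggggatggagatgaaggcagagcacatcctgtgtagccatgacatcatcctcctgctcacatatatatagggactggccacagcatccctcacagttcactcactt
Cck: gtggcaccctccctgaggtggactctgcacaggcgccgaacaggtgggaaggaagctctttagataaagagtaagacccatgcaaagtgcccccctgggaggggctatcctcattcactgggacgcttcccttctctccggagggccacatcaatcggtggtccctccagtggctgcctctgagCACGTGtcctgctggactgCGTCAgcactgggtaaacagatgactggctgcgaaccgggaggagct
An E-box was found in the promoters of Tac1, Nmu and Cck, 61, 57 and 66 bases before the start used, and in 6.02% of 32851 promoters over the same 250 bases. The E-box of Tac1 and its half-site nearer the start lie within the annotated gene. The half-site was found in 6 of the 8 promoters, against 17.8% of all promoters, and Tac2 and Npy held none. AGAACA, also searched on both strands and a half-site of the glucocorticoid receptor, whose sensitivity FKBP51 sets, was in none of the 8 and in 16.1% of all promoters. These are matches of letters and do not show that a factor binds.

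To compare genes with one another, levels were expressed per kilobase of the longest transcript (log2 CPM per kilobase, over 22 mice). Tac2 was the highest at 6.05 ± 0.33 (SD, n = 22), and it exceeded the next gene, Cck, in 22 of 22 mice. Cck (5.21 ± 0.44), Npy (5.09 ± 0.35), Tac1 (4.72 ± 0.41) and Nts (4.58 ± 0.36) formed a middle group. Within it Cck and Npy, and Tac1 and Nts, differed by less than the SD of their difference (0.12 with an SD of 0.47, and 0.15 with an SD of 0.34). Nmu (3.74 ± 0.48) and Grp (3.17 ± 0.52) followed, and the receptors came last, Tacr3 at 3.01 ± 0.37 and Tacr1 at 2.46 ± 0.28. Grp and Tacr3 were not separated either (0.15 with an SD of 0.52). The precursors of neurokinin B and substance P were thus both more abundant, per length, than either tachykinin receptor. Reads on shorter transcript forms would change these levels, since only the longest form was used.

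**Figure D1:**
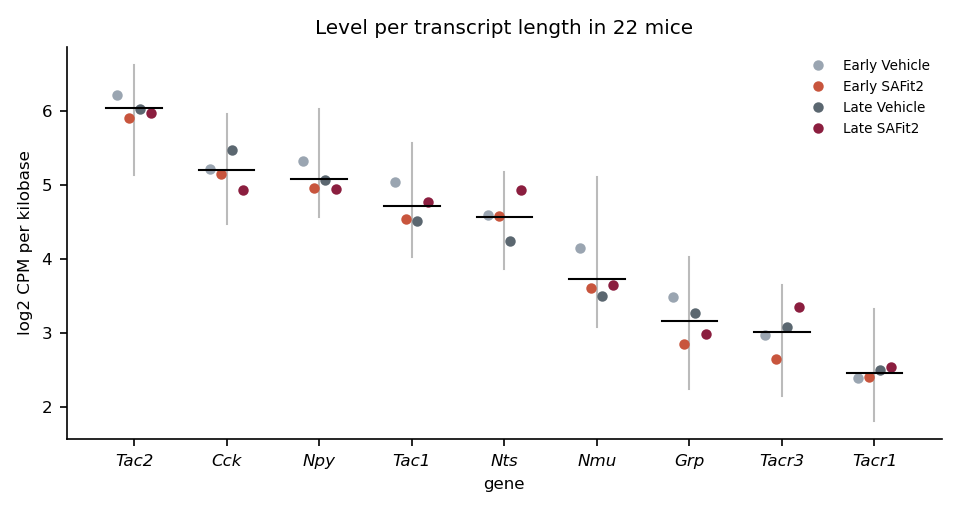
Level of each transcript per kilobase of its longest form (vertical axis, log2 CPM per kilobase). Coloured points are the means of the 4 groups, black lines the mean and grey lines the range over 22 mice, and levels run from 6.05 for Tac2 down to 2.46 for Tacr1.

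The late comparison asks what SAFit2 does while it is still being released. Only Nts was called, at an adjusted p under 0.05 (limma, Benjamini-Hochberg over all genes tested) and a change of at least 1.2-fold, and it was higher with SAFit2. That is 1 of 9, where 12.1% of all genes tested were called and 5.33% were called higher. In bulk tissue, fewer cells of a type and less RNA per cell cannot be told apart. For none of the 9 were the late groups free of overlap, against 1.71% of all genes. At a nominal p under 0.05 there were 2 of the 9, Nts higher and Cck lower, where 34.5% of all genes passed. The median late log2 fold change of the 9 was 0.03, beside -0.05 over all genes.

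Nts, whose peptide neurotensin acts in pain and body temperature control, measured 5.09, 5.35, 4.85, 5.51 and 5.51 log2 CPM in the 5 Late SAFit2 mice. In the 6 Late Vehicle mice it ranged from 4.20 to 5.06 with a median of 4.56. All 5 treated mice lay above the vehicle mean, and the groups overlapped through Late SAFit2 3 and Late Vehicle 6. The log2 fold change was 0.68 (SE 0.16, adjusted p = 0.032 by limma), a 1.61-fold difference, and exact permutation gave p = 0.011 (two-sided). The call rested on several libraries. Leaving out Late SAFit2 2, 4 or 5, or Late Vehicle 1, 3, 4 or 5, moved the adjusted p (limma) to between 0.056 and 0.101, with a log2 fold change of at least 0.61. Without the 4 libraries with most Bc1 (Early Vehicle 4, Late SAFit2 4 and 5, Late Vehicle 6) it was 0.62 (adjusted p = 0.053 by limma). Without Late SAFit2 3 and 5, the mice with muscle markers, it was 0.74 (adjusted p = 0.099 by limma), and in that fit, with 3 treated mice, 0.00596% of all genes were called.

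Nts has the lowest GC content of the 9 transcripts, 39.4%, and its level followed the GC slope of the library. Over 22 mice, with group means subtracted, Pearson's r was -0.77 and Spearman's rho -0.75, and r was -0.72 without the 2 mice farthest from the median slope. After the GC and length correction the late difference in Nts was 0.27 log2 units (SE 0.11, adjusted p = 0.216 by limma, exact permutation p = 0.043), and the call was lost. Under this correction no gene at all was called in the late comparison, 2610 of 16213 having a nominal p under 0.05, so the loss was not particular to Nts. A response to SAFit2 that happened to run along GC content would be removed as well, and the correction cannot tell both apart. Bc1 also moved with the late groups, at a mean of 16.19 log2 CPM in Late SAFit2 and 14.55 in Late Vehicle mice (exact permutation p = 0.028), and with Nts (r = 0.675, rho = 0.700, n = 22, r = 0.802 without the 2 mice farthest in Bc1). With library sizes free of Bc1 and mitochondrial genes the late difference in Nts was 0.66 (adjusted p = 0.032 by limma).

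Cck, a peptide of excitatory interneurons in the deeper laminae, moved the other way. It measured 5.04, 4.45, 4.26, 4.91 and 4.41 log2 CPM in Late SAFit2 mice, and from 4.51 to 5.62 with a median of 5.37 in Late Vehicle mice. Late Vehicle 2 and 6 were low, among the treated mice, and the other 4 vehicle mice lay above all treated mice. The log2 fold change was -0.55 (SE 0.22, adjusted p = 0.089 by limma, not called), and exact permutation gave p = 0.074. With 56.9% GC, the highest of the 9, Cck followed the GC slope in the opposite sense to Nts (r = 0.74, rho = 0.72, n = 22, r = 0.79 without the 2 farthest mice). The corrected late difference was -0.23 (adjusted p = 0.516 by limma). Cck was called when Late SAFit2 1, Late Vehicle 2 or Late Vehicle 6 was left out, with an adjusted p (limma) down to 0.024.

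The tachykinins were not called in late mice. Tac1 measured 5.62, 5.53, 5.44, 5.92 and 6.31 log2 CPM in Late SAFit2 mice and 5.16 to 6.09, with a median of 5.38, in Late Vehicle mice, a log2 difference of 0.27 (95% interval -0.14 to 0.68). Tac2 differed by -0.05 (-0.42 to 0.33). Both groups of Tac2 centred near 5.8, but the treated mice spread over 0.94 log2 units and the vehicle mice over 0.27. Among the receptors, Tacr1 differed by 0.03 (-0.31 to 0.38) and Tacr3 by 0.28 (-0.07 to 0.62), and all 5 treated mice lay above the vehicle mean of Tacr3. The remaining peptides gave 0.15 for Nmu, -0.13 for Npy and -0.28 for Grp, with adjusted p (limma) between 0.469 and 0.678.

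**Figure D2:**
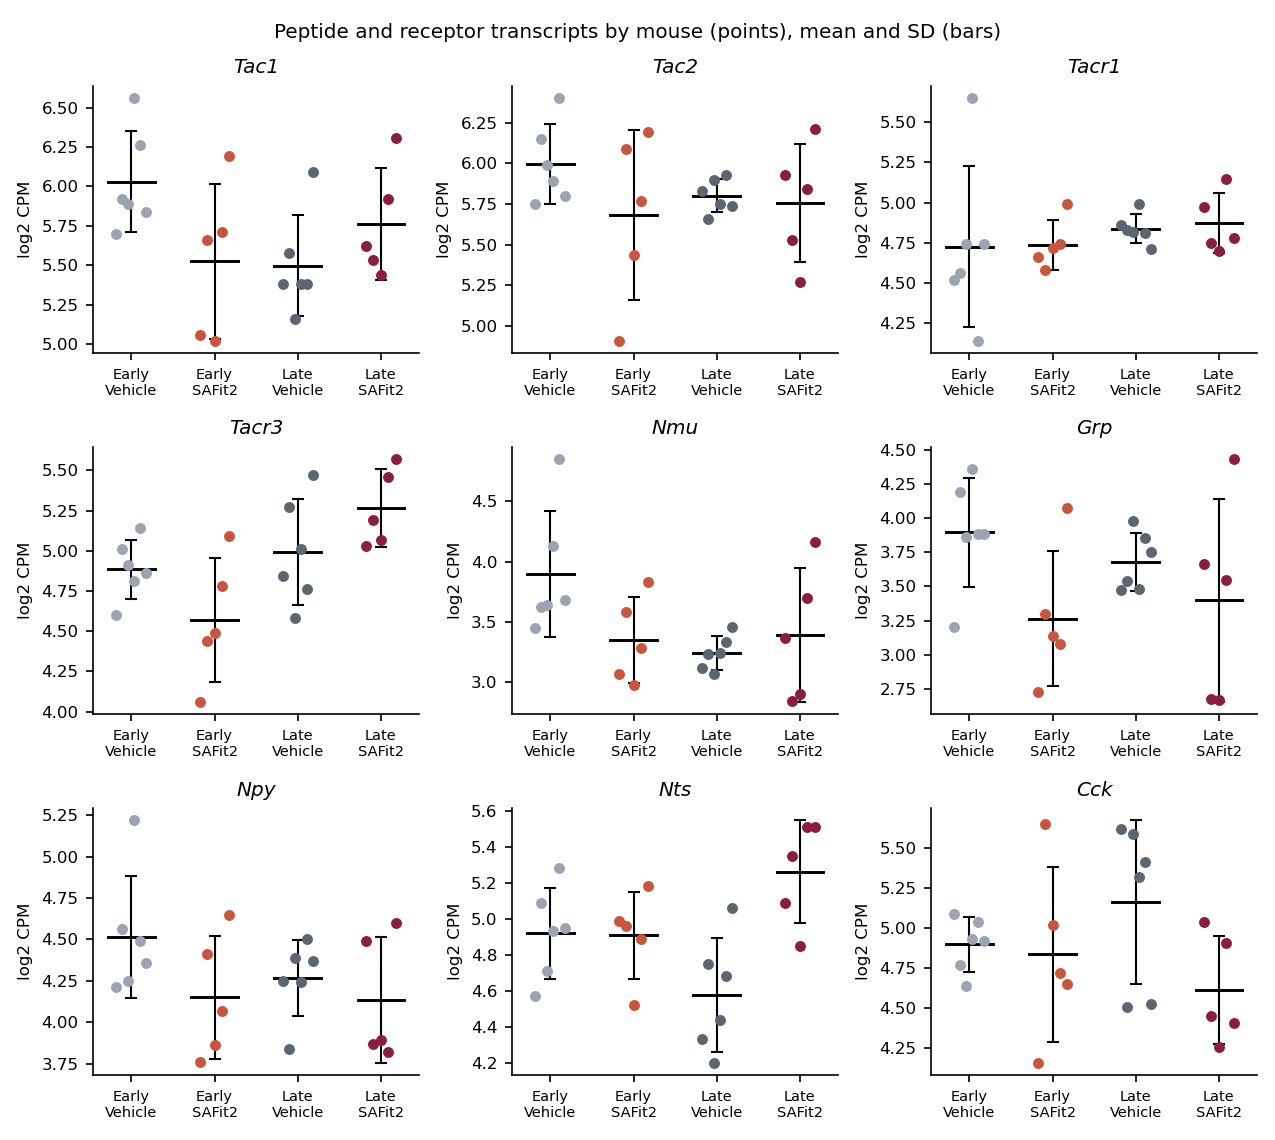
Log2 CPM (vertical axes) of each transcript in every mouse (points), with group means and SD (black), for the 4 groups on the horizontal axis. For Nts the mean is 5.26 in Late SAFit2 and 4.58 in Late Vehicle mice with overlapping groups, and Tac1, Tac2, Nmu, Grp and Npy have their highest group mean in Early Vehicle mice.

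The early comparison asks what remains of SAFit2 given around the onset of joint pain, weeks after it was released. None of the 9 was called, as was 0% of all genes tested. At a nominal p under 0.05 there were 3 of 9, Tac1, Nmu and Grp, all lower with SAFit2, where 2.48% of all genes passed and 1.54% passed as lower. Their adjusted p (limma) was 1.0. Of the 9 transcripts 8 had a negative fold change, with a median of -0.32 against 0.01 over all genes, and early groups overlapped for all 9 (0.352% of all genes had groups free of overlap). The 9 do not vary independently of one another (the plot of pairwise correlation shows this), so these signs do not count as 9 separate observations.

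Tac1 measured 5.06, 5.66, 5.02, 5.71 and 6.19 log2 CPM in Early SAFit2 mice, and from 5.70 to 6.56 with a median of 5.91 in Early Vehicle mice. Early SAFit2 1 and 3 were the lowest of all 22 mice for this gene, Early SAFit2 5 was among the vehicle mice. The log2 fold change was -0.50 (SE 0.20, nominal p = 0.019 by limma, exact permutation p = 0.080). Nmu measured 3.07, 3.58, 2.98, 3.28 and 3.83 in Early SAFit2 mice and 3.45 to 4.85, with a median of 3.66, in Early Vehicle mice. Its fold change of -0.55 (SE 0.24, nominal p = 0.030 by limma, exact permutation p = 0.069) drew on Early Vehicle 5, at 4.85, and Early Vehicle 4, at 4.13. Grp measured 2.73, 3.30, 3.14, 3.08 and 4.07 against 3.20 to 4.36 with a median of 3.88. Here 4 of 5 treated mice lay below all vehicle mice but one, Early Vehicle 1 (log2 fold change -0.63, SE 0.27, nominal p = 0.026 by limma, exact permutation p = 0.052).

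Early Vehicle 4 and 5, the libraries with most oligodendrocyte markers, were the 2 highest Early Vehicle mice for both Tac1 and Nmu. Without them none of the 9 had a nominal p under 0.05. The log2 fold changes were then -0.31 for Tac1, -0.25 for Nmu and -0.52 for Grp. The GC and length correction changed these 3 less than it changed Nts and Cck in late mice: -0.42 for Tac1, -0.42 for Nmu and -0.59 for Grp, with nominal p (limma) of 0.020, 0.047 and 0.038. Leaving out a single mouse kept all 3 negative, between -0.83 and -0.36. The nominal p (limma) stayed under 0.05 in 19 of 22 such fits for Tac1, 17 for Nmu and 18 for Grp. Without Early SAFit2 1 it was 0.075, 0.075 and 0.086 for Tac1, Nmu and Grp, and without Early Vehicle 4 it was 0.060, 0.058 and 0.063. The other early differences, as deposited, were -0.32 for Tac2, -0.36 for Npy and -0.32 for Tacr3, each with a 95% interval that includes 0. They were -0.06 for Cck, -0.01 for Nts and 0.01 for Tacr1. After the correction Tacr3 was at -0.29 (nominal p = 0.045 by limma, exact permutation p = 0.11). That made 4 of 9 past the nominal threshold, where 732 of 16213 genes passed. Tacr1 was most uneven among Early Vehicle mice (SD 0.50, against at most 0.19 in the other groups), at 5.65 in replicate 4 and 4.14 in replicate 5.

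**Figure D3:**
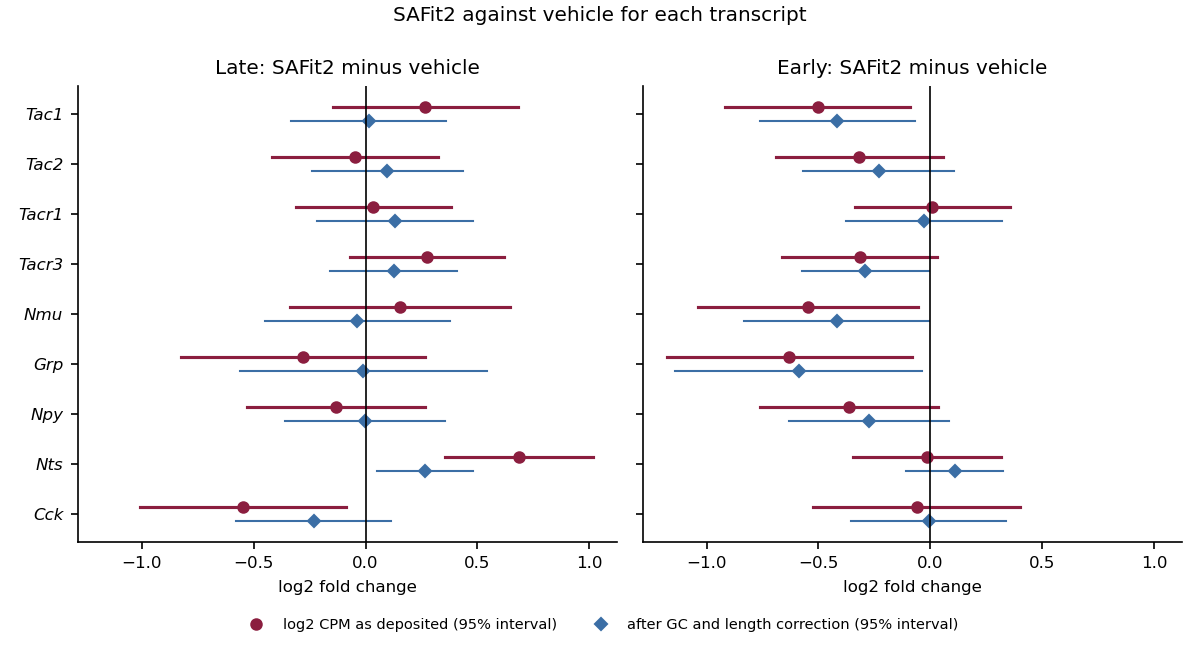
Log2 fold change of SAFit2 against vehicle (horizontal axes) with 95% intervals, as deposited (circles) and after GC and length correction (diamonds), for late and early mice. In late mice Nts is at 0.68 before and 0.27 after the correction, and in early mice Tac1, Nmu and Grp lie between -0.63 and -0.42 in both.

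As the mean of both timings, the treatment effect passed a nominal p under 0.05 for 2 of 9, where 13.2% of all genes did. Nts was higher (0.34, SE 0.11, adjusted p = 0.325 by limma) and Grp lower (-0.46, SE 0.19, adjusted p = 0.345). Exact permutation of treatment within timing over 213444 splits gave p = 0.028 for Nts and p = 0.040 for Grp. After the GC and length correction Nts was at 0.19 (exact permutation p = 0.017) and Grp at -0.30 (exact permutation p = 0.19), and Grp no longer passed the nominal threshold. Grp was below the vehicle mean in 4 of 5 treated mice in each timing, with Early SAFit2 5 and Late SAFit2 5 as the exceptions at 4.07 and 4.43.

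Whether the early and late effects differ was tested directly. None of the 9 was called, as was 0% of all genes, and the adjusted p (limma) were between 0.120 and 0.956. At a nominal p under 0.05 there were 4 of 9, where 24.9% of all genes passed: Tac1 (-0.77, SE 0.28), Nts (-0.70, SE 0.23), Nmu (-0.70, SE 0.34) and Tacr3 (-0.59, SE 0.24), all with the early effect below the late one. After the GC and length correction only Tacr3 passed the nominal threshold (-0.42, adjusted p = 0.394 by limma), and Nts was at -0.16.

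Without drug, Late Vehicle mice were compared with Early Vehicle mice, a difference in which timing, batch and gel schedule cannot be told apart. None of the 9 was called, against 9.11% of all genes, and none had groups free of overlap, against 4.92%. At a nominal p under 0.05 there were 3 of 9, where 24.3% of all genes passed, all lower in late mice: Nmu (-0.66, SE 0.23, adjusted p = 0.068 by limma), Tac1 (-0.53, SE 0.19, adjusted p = 0.078) and Nts (-0.35, SE 0.15, adjusted p = 0.162). For Nmu the 6 Late Vehicle mice lay between 3.07 and 3.46, and 5 of the 6 Early Vehicle mice above them, since Early Vehicle 1 was at 3.45. Each vehicle group is also the reference for the SAFit2 mice of its own timing. The part of these vehicle levels in the late effect of Nts and the early effects of Tac1 and Nmu was not tested. After the GC and length correction the differences were -0.52 for Nmu, -0.35 for Tac1 and -0.08 for Nts (adjusted p = 0.058, 0.132 and 0.609 by limma), and Nts no longer had a nominal p under 0.05. Without Early Vehicle 4 and 5 the differences were -0.36 for Nmu, -0.34 for Tac1 and -0.25 for Nts, none with a nominal p under 0.05.

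Within groups the peptides varied together. Correlations are given over 22 mice after the mean of each group was subtracted, as descriptions without a p, since all genes of a mouse share its library, depth, dissection and base composition. The median of all 36 pairs was r = 0.444, whereas the median over pairs of the 14460 genes with a mean log2 CPM of at least 0 was 0.00185, with an upper quartile of 0.281 (every 97th pair). Tac1 went with Tacr3 (r = 0.788, rho = 0.794), Nmu (r = 0.782, rho = 0.844) and Nts (r = 0.715, rho = 0.727). Grp went with Npy (r = 0.772, rho = 0.728) and Tac2 (r = 0.737, rho = 0.731), although Grp is excitatory and Npy inhibitory in the dorsal horn. Among Tac1, Tac2, Npy, Nmu and Grp all 10 pairs lay between 0.559 and 0.782, and between 0.556 and 0.839 after the GC and length correction. Leaving out the 2 mice farthest from the median of the first gene changed the named pairs to between 0.727 and 0.921. Correlations of Cck and Tacr1 with the others were lower, at most 0.447. Cck ran against Nts (r = -0.35) and Tacr3 (r = -0.34), values that became 0.27 and -0.000281 after the correction. Tacr1 reached its largest r with Npy (0.441), but leaving out 1 library took this r as low as 0.00997. It was -0.0368 without Early SAFit2 1 and Early Vehicle 4. Pairs with Tacr1 moved with the setting: Nmu and Tacr1 went from 0.0175 to 0.642 without Early Vehicle 5 and Late SAFit2 5, and after the correction Npy and Tacr1 were at 0.652 and Tac1 and Tacr1 at 0.534. Of the tachykinins and their receptors, Tac1 and Tacr1 had r = 0.307 (0.00182 without the 2 farthest mice), and Tac2 and Tacr3 had r = 0.534 (0.294 without them).

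**Figure D4:**
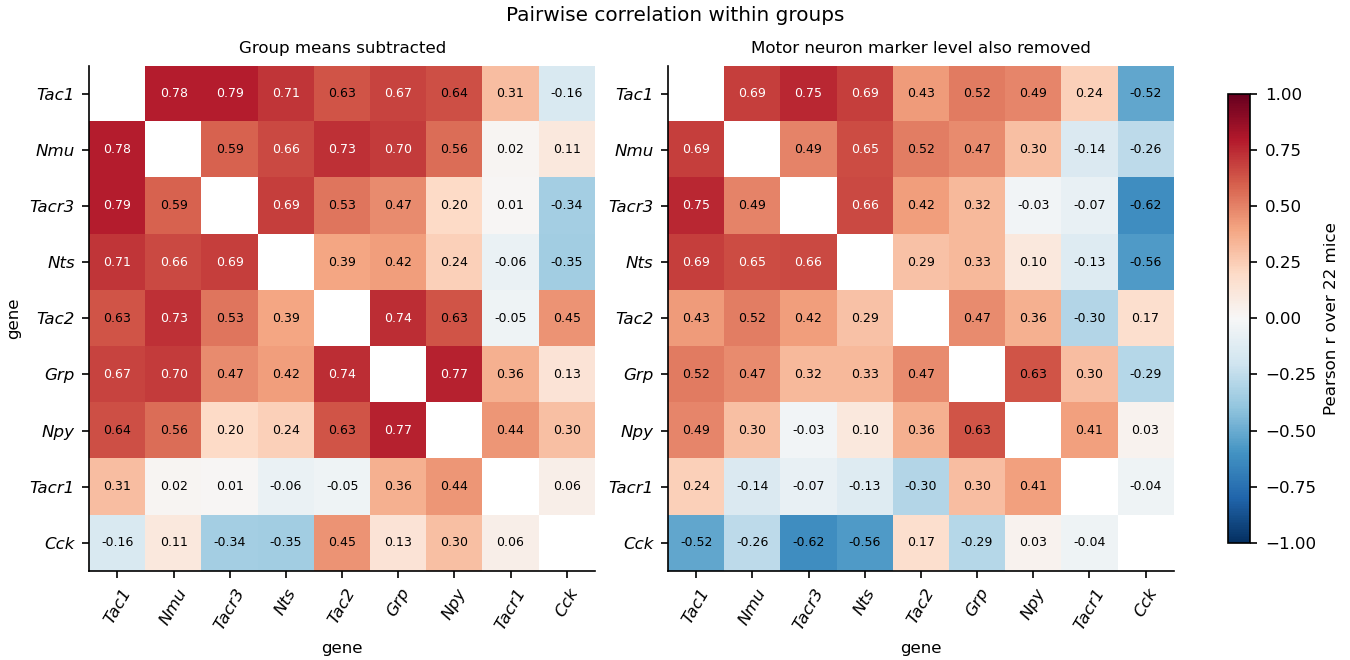
Pearson's r (colour and number) for each pair of transcripts over 22 mice, with group means subtracted (left) and with the summed level of motor neuron markers also removed (right). Tac1, Nmu, Tac2, Grp and Npy are positively correlated in every pair on both sides, and Cck has its most negative value with Nts on the left (-0.35) and with Tacr3 on the right (-0.62).

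The level of motor neuron markers moved with this shared variation. The summed CPM of the 7 precursors was lowest in Early SAFit2 1 (7.14 log2 CPM), where motor neuron markers were at 8.56, and among the highest in Early SAFit2 5 (8.04), where they were at 4.03, the lowest of all mice. Over 22 mice r between both sums was -0.75 (rho = -0.74), and -0.59 without Early SAFit2 2 and 5, the mice farthest from the median. By gene, r with motor neuron markers was -0.74 for Tac2, -0.68 for Grp, -0.62 for Nmu, -0.59 for Npy, -0.51 for Tac1, -0.47 for Cck and -0.37 for Tacr3, and weaker for Nts (-0.28) and Tacr1 (-0.20). Negative values were not limited to motor neuron markers. For the sum of 10 markers of neurons in general r ran from -0.671 for Tac2 and -0.612 for Grp to 0.122 for Nts. For 8 ventral interneuron markers it ran from -0.532 for Tac2 to 0.102 for Tacr1. With the sum of dorsal excitatory markers r was 0.857 for Tac1, 0.759 for Tacr3, 0.724 for Nmu, 0.705 for Nts and 0.602 for Grp, between 0.246 and 0.43 for Tac2, Npy and Tacr1, and -0.371 for Cck. With the GC and length correction applied to the transcript but not to the marker sum, r was 0.245 for Nts and -0.219 for Cck. It was then between 0.593 and 0.73 for Tac1, Tacr3, Nmu and Grp. Since the marker sum kept its GC trend, these values do not show r with both sides corrected. For the sum of dorsal inhibitory markers r was 0.656 for Tacr1 and 0.541 for Grp (0.528 and 0.531 with only the transcript corrected). For the other transcripts it lay between -0.249 (Nts) and 0.357 (Npy). With the motor neuron level removed the 10 pairs of Tac1, Tac2, Npy, Nmu and Grp had r between 0.304 and 0.689. Mean motor neuron levels were close between treated and vehicle mice of the same timing (6.37 and 6.35 in early, 6.93 and 6.87 log2 CPM in late mice). Other sums were less alike. Dorsal excitatory markers averaged 10.03 in Late SAFit2 and 9.87 in Late Vehicle mice (9.74 and 9.76 in early mice). Markers of neurons in general averaged 13.05 and 12.86 in late mice (12.89 and 12.76 in early mice). The part of these sums in the late difference of Nts was not tested. With the motor neuron level as a covariate the early log2 fold changes stayed at -0.50 for Tac1, -0.54 for Nmu and -0.63 for Grp. In this fit Tac2 (-0.31) and Npy (-0.36) also had a nominal p under 0.05 (limma, 0.029 and 0.042). That makes 5 of 9, where 2.77% of all genes passed in the same fit, with no adjusted p under 0.05. The late difference in Nts was 0.69 (adjusted p = 0.036 by limma).

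**Figure D5:**
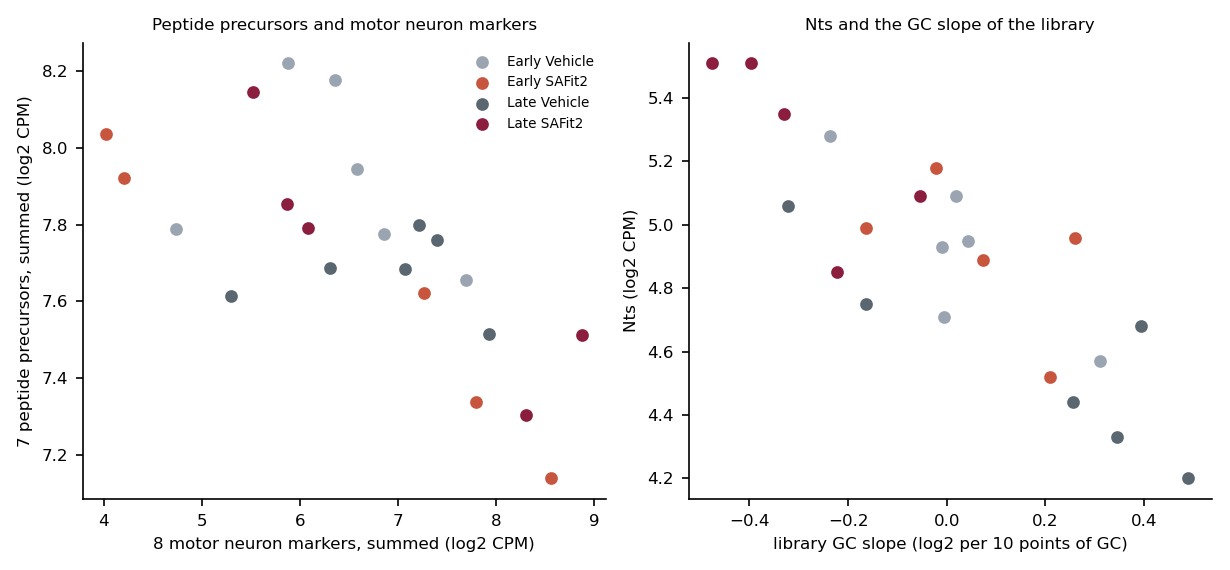
Left, summed level of the 7 peptide precursors against that of 8 motor neuron markers (both log2 CPM) in 22 mice coloured by group. Right, Nts (log2 CPM) against the GC slope of the library (log2 per 10 points of GC), where Late SAFit2 mice lie at slopes from -0.48 to -0.05 and 5 of 6 Late Vehicle mice at slopes from -0.16 to 0.49.

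Of all genes with a mean log2 CPM of at least 0, those whose pattern was most like each transcript were found by the same r, 3 for each. For both Grp and Npy the first gene was Crabp1 (r = 0.87 and 0.88) and the next Penk, the enkephalin precursor (r = 0.86 and 0.83), and these values were at least 0.81 after the GC and length correction. Htr1a, a serotonin receptor, was the third for Grp (0.85) and Ngb the third for Npy (0.83). Tac1 was most like Bex4 (0.88), Mmd (0.88) and Spg21 (0.86), and Tac2 most like Gap43 (0.85), a protein of growing axons and terminals, Actn1 (0.83) and Cited2 (0.80). Nmu was followed by Celf4 (0.94), an RNA-binding protein of neurons, Pa2g4 (0.92) and Celf2 (0.90). Tacr3 was most like Cyria (0.91), Slc2a13 (0.87) and Calb1 (0.87), the last a calcium-binding protein of superficial excitatory neurons. Tacr1 was most like Mcph1 (0.83), Ncbp1 (0.82) and Ddx19a (0.79). After the correction r was at least 0.78 for the genes named with Tac1, Nmu and Tacr1. With Tac2 it was 0.86 for Gap43, 0.71 for Actn1 and 0.59 for Cited2. With Tacr3 it was 0.93 for Cyria, 0.81 for Slc2a13 and 0.70 for Calb1. For Nts the 3 genes were Zfp788, Btbd1 and Bmi1 (r of 0.88 each), and these fell to 0.40, 0.32 and 0.45 after the correction, the largest loss among the 9. For Cck, Tmem191c (0.92) and Wbp1 (0.90) were among the 3, and they remained at 0.74 and 0.73.

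Of 12 other receptors for these peptides 10 were tested, and none was called in either timing. Nominally 4 of the 10 passed in late mice, where 34.5% of all genes did: Npy5r higher (0.44) and Cckar (-0.71), Cckbr (-0.31) and Ntsr2 (-0.35) lower, with adjusted p (limma) between 0.080 and 0.125, and none passed in early mice. The median late log2 fold change of the list was -0.11 beside -0.05 over all genes. Ntsr2, the neurotensin receptor also made by astrocytes, averaged 6.87 log2 CPM and was at -0.14 after the correction. Sort1, the sorting receptor sortilin that binds neurotensin, averaged 7.97 log2 CPM and differed by -0.18 in late mice. Ntsr1 averaged 2.24 log2 CPM and differed by -0.36 (SE 0.36). After the correction Cckbr was at 0.08 and Npy5r at 0.13, whereas Cckar, a cholecystokinin receptor, was at -0.71 as before (adjusted p = 0.272 by limma). The neuropeptide Y receptors Npy1r (4.04 log2 CPM) and Npy2r (2.67) differed in late mice by -0.03 and 0.18, and in early mice by -0.29 and 0.08. Nmur2, the neuromedin U receptor of the superficial dorsal horn, averaged 2.78 log2 CPM and differed by 0.46 in late and -0.04 in early mice (SE 0.24). Grpr, the receptor of Grp, was near the detection limit, with 2 to 46 reads a library, and differed by 0.08 in both timings with an SE of 0.55, near the size of the early difference in Grp (-0.63), so a change of that size could not be resolved.

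Of 20 other peptide precursors 14 were tested. None was called. In late mice only Vip passed a nominal p under 0.05 (0.61, SE 0.29, adjusted p = 0.134 by limma, and 0.20 after the correction), and in early mice only Cartpt, the precursor of cocaine- and amphetamine-regulated transcript peptides, which was lower (-0.88, SE 0.37, adjusted p = 1.0 by limma). The median early log2 fold change of this list was -0.26 beside 0.01 over all genes, next to -0.36 for the 7 precursors described here. Of 20 genes for the processing and release of peptides, all tested, 1 was called in late mice, where 12.1% of all genes were. Pcsk1n, which encodes an inhibitor of a peptide-cutting convertase, was lower with SAFit2 (-1.31, SE 0.34, adjusted p = 0.032 by limma), and at -0.87 (adjusted p = 0.116) after the correction. In early mice only Cadps, needed for dense-core vesicle release, passed a nominal p under 0.05 (0.29, SE 0.14, adjusted p = 1.0 by limma). The median late change of these 20 genes was 0.02.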

How the data were processed

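RNA was sequenced from 22 mice, grouped by label. Sample titles of the 5 Early SAFit2 mice name SAFit1, and their treatment label, SAFit2, was followed. The deposited values are log2 CPM. Per the methods and labels, the authors used Trimmomatic, HISAT2 and featureCounts with mm10, and normalized by trimmed mean of M-values. Tool versions are not given in the sources used here. A value of -3.154 stands for 0 reads. Reads worked back from the values were whole in 100.0% of cases (tolerance 0.02 reads) and gave the depth. All sample columns were used.

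Genes reaching -1 log2 CPM in 5 libraries (16765) were fitted with limma 3.58.1 in R 4.3.3, with 4 group means, a variance trend and Benjamini-Hochberg adjustment over all of them. Calls used the study's thresholds (adjusted p under 0.05 and 1.2-fold, or nominal p under 0.05 for the overall effect). A two-sided exact permutation test of each transcript used all 462 splits of 5 and 6 mice (smallest p 0.00216), 924 of 6 and 6, or 213444 within both timings. The correction subtracted each library's loess trend (span 0.5) on GC content and transcript length (GENCODE M21, 16213 genes). Scripts were tested on simulated data. Nothing says which mice were handled together, so p-values measure only the spread between these samples.

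The transcripts, lists and tests were chosen with earlier results of these data known. Named were the 9 transcripts, each listed receptor, listed genes called in late mice or with a nominal p under 0.05 in early mice, and the 3 genes with the highest r to each transcript, 1 of which is not reported here. Vip was named after its values were seen. Alternatives were the filter (none, or 1 log2 CPM), a pseudocount of 0.5 or 2 CPM, no variance trend, quality weights, median centring, quantiles, the correction, the replicate block, voom, the 2 groups alone and each library left out. Those on motor neuron level, Bc1, mitochondrial genes Early Vehicle 4 and 5 and Late SAFit2 3 and 5 were chosen after seeing the data.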

Additional observations from a re-analysis of the deposited data

Results flagged for a closer look

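Each transcript was checked in each group, 36 combinations in all, for a mouse far from the others of its group, which chance alone gives in about 1 of 20 groups. It was found once. Npy in Early Vehicle 4 was at 5.22 log2 CPM, the next highest of the 6 mice being at 4.56, a gap of 0.655 of the range of the group. This library also had the highest Tacr1 of all 22 mice (5.65) and the highest Tac1 (6.56), high oligodendrocyte markers and Bc1 above 16 log2 CPM. The part of these in the Npy value was not tested.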

How the results depend on the processing

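The number of late calls among the 9 transcripts (1, Nts) was 0 without a variance trend, with the GC and length correction (alone or with the replicate block), with the 2 groups alone, without the 4 libraries with most Bc1 and without Late SAFit2 3 and 5. It was 2 with library quality weights and at a nominal p under 0.05, and 0 to 2 with 1 library left out. No early transcript was called under any setting run. The number past a nominal p in early mice was 3 as reported. It was 4 with the correction, 5 with motor neuron level as a covariate and 0 without Early Vehicle 4 and 5. For the overall effect (2 past nominal p), library quality weights gave 5, the correction 1, leaving out Early Vehicle 4 and 5 gave 1, an adjusted p gave 0, and leaving out 1 library 1 to 4. The difference between early and late effects (0 called) gave 3 with library quality weights and 0 to 3 with 1 library left out, the 3 arising without Late Vehicle 6. The vehicle comparison (0 called) gave 4 with library quality weights, 2 with the replicate block, 1 with the block and the correction, 3 without the libraries with most Bc1, 2 with library sizes free of Bc1 and mitochondrial genes, 1 without Late SAFit2 3 and 5, and 0 to 3 with 1 library left out (3 without Late Vehicle 6, 1 without Late SAFit2 5). The cause was not tested.

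Replicate numbers were not taken as pairs in the main fit. Of 10 correlations of same-numbered mice 2 were above 0.1 (from -0.236 to 0.317), which cannot exclude shared handling. The paper states that treatment groups were represented equally in each cage, and cage was not modelled here. Late Nts was 0.74 under the block (adjusted p = 0.021 by limma).

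Fold changes that changed sign were all of transcripts not called, and at most 0.16 in size. In late mice these were Tac2 with median centring (0.0082), the correction (0.10) and the block with it (0.078), Nmu with quality weights (-0.0096), the correction (-0.037), the block with it (-0.066) and without most Bc1 (-0.16), Grp with the block and the correction (0.018), and Tacr1 with quality weights (-0.035) and without most Bc1 (-0.055). In early mice they were Nts with the correction (0.11), the block (0.039), both (0.11) and without Early Vehicle 4 and 5 (0.079), and Tacr1 with the correction (-0.029), the block (-0.0019), both (-0.038) and the other library sizes (-0.0012). With 1 library left out, late values ran from -0.16 to 0.074 for Tac2, -0.038 to 0.29 for Nmu and -0.036 to 0.076 for Tacr1, and early values from -0.26 to 0.11 for Cck, -0.082 to 0.083 for Nts and -0.11 to 0.19 for Tacr1. Apart from fits without 1 library, 299 of 324 fold changes kept sign and call.

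Over all genes, late calls were 2021 as reported (894 higher, 1127 lower), 2063 with median centring (1139 higher, 924 lower), 876 with voom and 0 with the correction. Vehicle calls were 1527 (552 higher), 2014 with median centring (1198 higher) and 3012 with the correction. Without Late SAFit2 3 and 5 there was 1 late call. Of the receptors tested, Grpr had the fewest reads.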
